A study of Mus musculus with 12 samples.

Results

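The BCL2 family decides, at the surface of the mitochondrion, whether a cell releases cytochrome c and dies by apoptosis. Survival members (Bcl2, Bcl2l1, which encodes BCL-XL, and Mcl1) hold the pore-forming effectors Bax and Bak1 in check. The BH3-only members Bcl2l11 (BIM), Bad, Bid, Bbc3 (PUMA) and Pmaip1 (NOXA) carry stress and growth-factor signals to both groups, and in the nervous system the family sets how many progenitors and young neurons survive. These 10 genes were chosen by name as the core members of each role, and all 10 are among the 22609 genes with read counts and among the 34993 identifiers with FPKM values (fragments per length of the gene and per size of the library). Their levels were followed over 12 RNAseq libraries of proliferating and differentiating mouse ANS cells.

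ANS cells are adherent neural stem cells, here derived from mouse embryos at E14.5 of a strain that is not given in the sources used here, that can be driven towards GABAergic (inhibitory) neurons. At T0 (n = 3) the cells proliferated in growth medium with 20 ng/ml FGF2, 20 ng/ml EGF and 1% N2. At T1 (n = 3) they had spent 2 days in medium D1, with 10 ng/ml FGF, 2 ng/ml EGF, 0.5% N2 and 1% B27. At T2 (n = 4) they were 2 days, and at T3 (n = 2) 10 days, past the change to medium B by the labels, which held 10 ng/ml FGF2, 20 ng/ml BDNF, 0.5% N2 and 1% B27 and no EGF. FGF2 was thus present in every group, and the time in culture and the medium changed together, so their parts cannot be told apart. The study's text and the labels differ on the number of T2 cultures and on whether the time of T3 runs from the change to medium B or from T2, and the labels were followed. The pair of libraries at T3 are numbered 1 and 4 in the labels. The study calls its replicates biological and independent, but no source used here says whether they came from separate derivations of cells, so p-values measure the spread between these cultures.

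Libraries held 8910724 to 16631614 reads counted on genes (median 12601169). One library stood apart: T0 replicate 3 differed from T0 replicates 1 and 2 by a mean chi-square per gene of 96.4 and 99.9, whereas replicates 1 and 2 differed by 3.17. The pair of T3 libraries differed by 32.4, more than any pair within T1 (22.5 at most) or within T2 (21.8 at most). The glial marker Gfap had 7 counts in T0 replicate 3 against 1958 and 2144 in the other T0 libraries, and the proliferation gene Mki67 had 12180 against 7613 and 8696. The summed level of 10 proliferation markers was 2108 to 3287 CPM (read counts scaled to a common library size, further scaled by TMM factors for single genes but not for marker sums) at T0, and 184 to 343 in T1 libraries. It was 240 to 442 CPM in T2 and 676 to 1280 in T3 libraries. The sum of 8 neuronal markers was 857 to 992 CPM at T0 and 1808 to 2807 CPM in all later libraries, with Stmn2 at 3 counts or fewer in every library. Its largest part was Mtap2, at means of 897 CPM at T0 and 1623 to 1905 later, whereas the means of Syn1 stayed at 31.1 to 40.7 CPM. By the edgeR test described below, 5 of 6 tested genes of this list rose at T1 (15.1% of all genes) and 6 of 7 at T2 (21.4%). Astrocyte markers (7 genes) summed to 715 to 2035 CPM at T0, where T0 replicate 3 had the lowest value, and to 1344 to 1497 at T1. Oligodendrocyte markers (9 genes) summed to 3484 to 3688 CPM at T0 and 5457 to 6552 at T3, while Mag stayed at 3 counts or fewer. The largest parts of that sum were Olig1, at means of 2247 CPM at T0 and 3797 at T3, and Olig2, at 1105 and 1513. The means of Sox10 (2.23 and 0.22 CPM) and Mbp (0.64 and 0.39 CPM) were lower at T3. The edgeR test described below called 0 of the 7 tested genes of this list in T3 vs. T0, against 4.72% of all genes. Of the markers of microglia, blood vessel cells and fibroblasts, 5 of 6, 3 of 5 and 3 of 5 were at 3 counts or fewer in every library. In such bulk libraries, fewer cells of a type and less RNA per cell cannot be told apart.

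The feature that joins the members is the BH3 stretch, with which one family protein docks into the groove of another. Its coding bases, read from the coding sequence of 1 GENCODE transcript per gene on the NCBIM37 (mm9) assembly, are shown in the order survival genes, effectors, BH3-only genes, since the groups of genes compared below differ by what else surrounds this stretch. Capitals mark the codon of the conserved leucine and the codons of the small residue and the aspartate.
Bcl2: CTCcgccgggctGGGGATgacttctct
Bcl2l1: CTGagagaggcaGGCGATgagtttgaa
Mcl1: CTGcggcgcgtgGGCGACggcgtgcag
Bax: CTCcggcgaattGGAGATgaactggac
Bak1: CTTgctctcatcGGAGATgatattaac
Bcl2l11: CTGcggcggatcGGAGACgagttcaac
Bad: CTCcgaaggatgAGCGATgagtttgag
Bid: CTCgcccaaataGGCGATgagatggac
Bbc3: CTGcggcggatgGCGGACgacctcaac
Hrk, a further BH3-only gene described below: CTGcaggcgctgGGCGACgagctgcac

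Each of the 10 stretches lies within 1 exon. That of Bcl2l11 is at chr2:127972886-127972912 in exon 3 of 4 on the plus strand, that of Bbc3 at chr7:16899122-16899148 in exon 3 of 4 on the plus strand, and that of Hrk at chr5:118619900-118619926 in exon 1 of 2 on the plus strand. Not every coding transcript holds the stretch. The pattern was found in 4 of 5 annotated coding transcripts of Bcl2l11, 1 of 2 of Bbc3, 8 of 9 of Bcl2l1, 3 of 5 of Bad and of Bak1, and 2 of 3 of Bid, and the counts, which are per gene, do not separate these forms. Reads can also be shared with genes on the opposite strand, because the library kit does not keep strand. Of the exon bases of Bad, 25.8% overlap Gpr137, of those of Bid 17.7% overlap Bcl2l13, of those of Bak1 14.8% overlap Ggnbp1, and of those of Bcl2 7.76% overlap D630008O14Rik, so the levels of these 4 genes are less certain than the others.

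Of the 10 members, Bbc3 and Bcl2l11 were the 2 that passed the edgeR test of a pair of time points on all their libraries: Bbc3 was higher at T1 and T2 than at T0, and Bcl2l11 was lower at T3 than at T2. The other 7 detected members did not pass that test, with log2 fold changes between -0.54 and 0.38 in the 5 comparisons, and Pmaip1 was not detected. Each pair of time points was fitted with edgeR's quasi-likelihood test over all genes, with Benjamini-Hochberg adjustment and a threshold of 0.05, and 9 of the 10 members had enough counts to be tested in each of the 5 comparisons. The 3 comparisons with T0 share the T0 libraries, and the later comparisons share T1 or T2 libraries with them.

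In T1 vs. T0, 1 of the 9 tested members was called, against 31.9% of all 12364 genes tested. In T2 vs. T0 it was again 1 of 9, against 43.3% of 12607 genes. In both comparisons the share of members called was below the share of all genes. In T3 vs. T0, edgeR called 0 of 9 members against 4.72% of 12721 genes. At an unadjusted p under 0.05 that comparison had 1 member, against 26.3% of all genes, DESeq2 called 1 (15.2% of all genes), and limma on log2(FPKM + 1) called 0 (1.29%). In T2 vs. T1, edgeR called 0 of 9 against 0.63% of 12382 genes, with 2 members at an unadjusted p under 0.05 against 11.7% of genes, while DESeq2 called 2 (2.13% of all genes) and limma called 1 (0.0455%). In T3 vs. T2, 1 of 9 was called against 1.19% of 12599 genes.

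**Figure D1:**
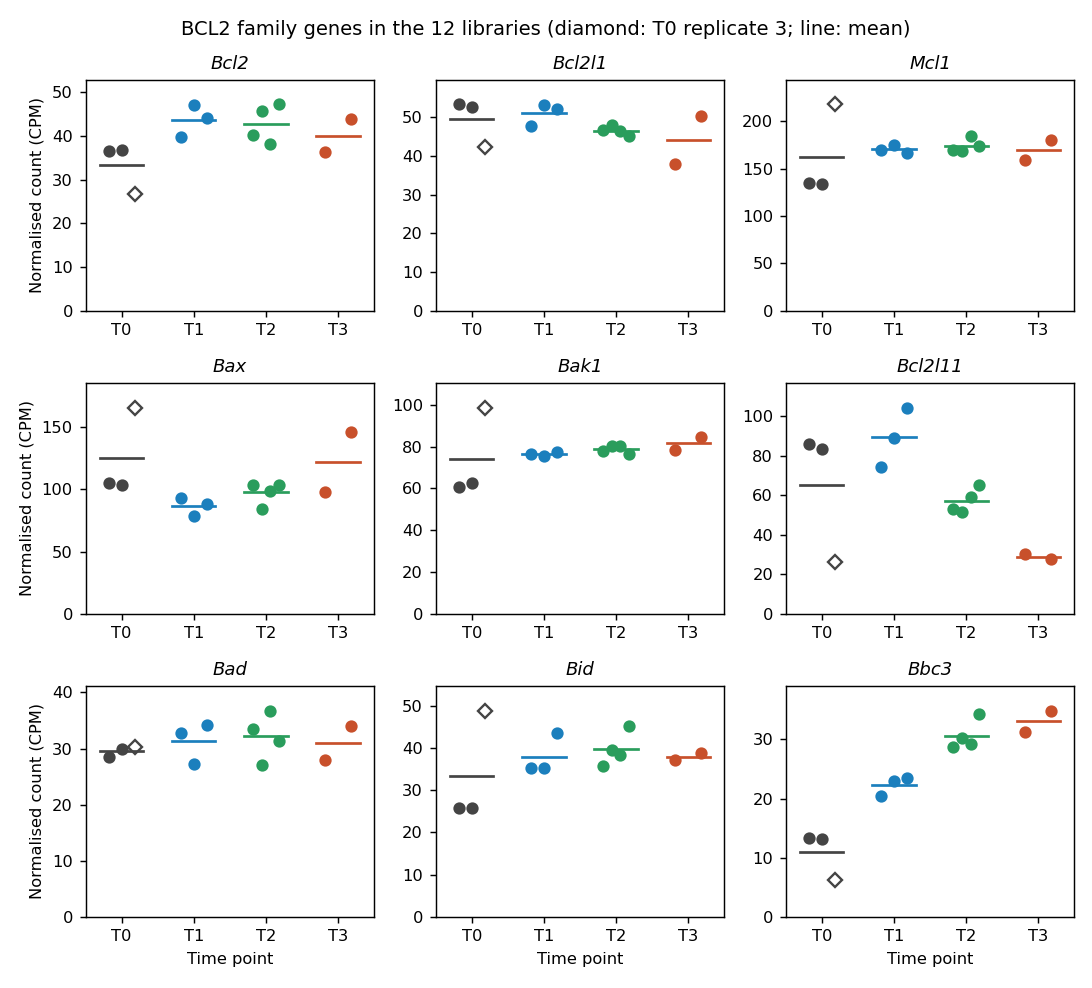
Normalised counts (CPM) of the 9 detected members in the 12 libraries, by time point, with a line at each mean and an open diamond for T0 replicate 3. Bbc3 stands at 6.14 to 13.3 CPM at T0 and at 20.3 CPM or more in every later library, whereas Bcl2l11 is lowest at T3 and in T0 replicate 3.

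Groups that did not overlap were also counted, where every library of one time point lay above every library of the other in normalised counts. In T1 vs. T0 these were 3 of 9 members (56.3% of all genes), in T2 vs. T0 2 (54.2%) and in T3 vs. T0 1 (50%). In T2 vs. T1 they were 2 of 9 (12.1% of all genes) and in T3 vs. T2 1 (25.7%). Bbc3 was among them in the first 4 comparisons, and Bcl2l11 in the last 2. The median log2 fold change of the tested members lay between -0.05 and 0.11 in the 5 comparisons, and that of all genes between -0.01 and 0.01.

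Leaving T0 replicate 3 out changed how many members were called. Without it, 5 of 9 members were called in T1 vs. T0 (50.1% of all genes), 5 in T2 vs. T0 (52.1%) and 3 in T3 vs. T0 (18.4%). In T0 replicate 3, Bid was 1.90 times, Mcl1 1.62 times, Bak1 1.60 times and Bax 1.59 times the mean of the other T0 libraries, whereas Bcl2l11 was 3.23 times, Bbc3 2.16 times and Bcl2 1.37 times lower. Bad, at 1.04 times, was the member closest to the other T0 libraries. Below, the comparisons of members with T0 and the list counts are therefore given with and without this library, and single genes of the other lists where its absence ended a call or moved the value by over 1.5 times.

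**Figure D2:**
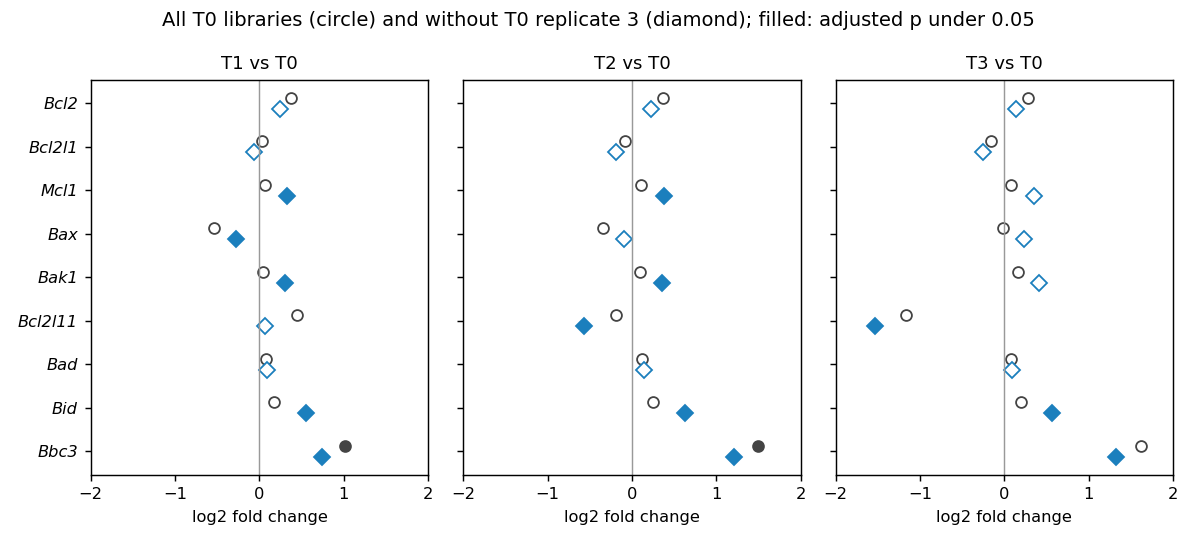
Log2 fold change of each member against T0 with all T0 libraries (circles) and without T0 replicate 3 (diamonds), filled where the adjusted p was under 0.05. With all libraries Bbc3 is the one filled gene, at T1 and T2, and without T0 replicate 3 Mcl1, Bak1 and Bid are also filled at T1 and T2, Bax at T1, Bcl2l11 at T2 and T3, and Bbc3 and Bid at T3.

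Among the survival genes, Mcl1 encodes a short-lived protein on which neural progenitors depend, and it had the highest FPKM of these genes in every group. Mcl1 (chr3:95462643-95467099, plus strand) had 135, 134 and 218 CPM at T0, the last in replicate 3. It had 167 to 175 CPM in T1 libraries, 169 to 184 in T2 libraries, and 159 and 180 at T3. The 2 lower T0 libraries lay below all 9 later libraries and T0 replicate 3 lay above them, so the groups overlapped. Against T0 the log2 fold change was 0.06 for T1 (SE 0.20, adjusted p = 0.835), 0.11 for T2 (SE 0.18, adjusted p = 0.642) and 0.08 for T3 (SE 0.26, adjusted p = 0.867). With T0 replicate 3 left out, Mcl1 rose at T1 by 0.33 (adjusted p = 0.00536) and at T2 by 0.38 (adjusted p = 0.0027) on the log2 scale by edgeR, and the value at T3 was 0.35 (adjusted p = 0.0917).

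Bcl2l1 (chr2:152593052-152657464, minus strand) encodes BCL-XL, the survival factor of maturing neurons. Its level was 42.4 to 53.4 CPM at T0, 47.9 to 53.3 in T1 libraries, 45.1 to 47.9 in T2 libraries, and 38.0 and 50.3 at T3. All 4 groups overlapped with their neighbours in the order T3, T2, T0, T1. The log2 fold change against T0 was 0.04, -0.08 and -0.15 for T1, T2 and T3, and -0.06, -0.19 and -0.26 without T0 replicate 3, and none passed. Bcl2 (chr1:108434755-108610851, minus strand), the founding member, had 36.5, 36.8 and 26.7 CPM at T0, where replicate 3 was the lowest. It had 39.7 to 47.1 CPM in T1 libraries, 38.2 to 47.2 in T2 libraries, and 36.3 and 43.8 at T3. The ranges at T1 and T2 lay above that at T0, by a log2 fold change of 0.38 (SE 0.16, adjusted p = 0.118) at T1 and 0.36 (SE 0.15, adjusted p = 0.0841) at T2. Neither passed, and without T0 replicate 3 the values were 0.24 (adjusted p = 0.0698) and 0.23 (adjusted p = 0.108) by edgeR. In T3 vs. T0 they were 0.28 with all libraries and 0.14 without that library.

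Of the effectors, Bax must move from the cytosol to the mitochondrion and Bak1 already resides there. Bax (chr7:52717065-52722268, minus strand) had 105, 104 and 166 CPM at T0, with replicate 3 the highest. It had 92.8, 78.7 and 88.4 CPM in T1 libraries, 84.6 to 104 in T2 libraries, and 98.2 and 146 at T3. Every T1 library lay below every T0 library, by a log2 fold change of -0.54 (SE 0.20, adjusted p = 0.0815), which did not pass, though in 1 fit of all 12 libraries it did (-0.53, adjusted p = 0.0449). With that library left out, Bax fell by 0.28 on the log2 scale at T1 (adjusted p = 0.0329 by edgeR). In T2 vs. T0 it was -0.35 with all libraries and -0.09 without that library, and in T3 vs. T0 it was -0.02 and 0.23, none of which passed. At T3 it spanned the widest range of the members, and without T3 replicate 1 Bax rose against T2 by 0.58 on the log2 scale (adjusted p = 0.032 by edgeR), whereas with both T3 libraries the value was 0.32 (adjusted p = 0.369).

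Bak1 (chr17:27156755-27165954, minus strand) had 60.8, 62.4 and 98.7 CPM at T0. It varied little afterwards, from 75.7 to 84.7 CPM over the 9 later libraries. Those 9 libraries all lay between T0 replicates 1 and 2 below and T0 replicate 3 above. The log2 fold change was 0.04, 0.09 and 0.16 at T1, T2 and T3 (adjusted p = 0.90, 0.68 and 0.72), and without T0 replicate 3 Bak1 rose by 0.30 at T1 (adjusted p = 0.0127) and 0.36 at T2 (adjusted p = 0.0037) by edgeR, with 0.42 at T3 (adjusted p = 0.0563).

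Bbc3 (chr7:16894965-16903554, plus strand) encodes PUMA, a potent killer that p53, FOXO3 and endoplasmic reticulum stress can induce. It had 13.3, 13.2 and 6.14 CPM at T0, from 178, 191 and 87 reads. At T1 it had 20.3, 22.9 and 23.4 CPM, and at T2 28.7, 30.3, 29.3 and 34.4 CPM. At T3 it had 31.3 and 34.9 CPM. Every T1 library lay above every T0 library, every T2 library above every T1 library, and the T3 range overlapped that of T2. Bbc3 rose 2.03-fold at T1 (log2 fold change 1.02, SE 0.30, adjusted p = 0.0382) and 2.82-fold at T2 (1.50, SE 0.26, adjusted p = 0.00252). At T3 the difference was 3.06-fold (1.61, SE 0.37), with an adjusted p of 0.0633 that missed the threshold.

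Without T0 replicate 3, which had the lowest Bbc3 level, the gene rose in all 3 comparisons with T0, by 0.74 (adjusted p = 0.000971), 1.21 (adjusted p = 2.61e-05) and 1.33 (adjusted p = 0.0118) on the log2 scale by edgeR. The call at T1 was lost without any one of the T1 libraries, with adjusted p from 0.0976 to 0.117 at log2 fold changes of 0.98 to 1.08. The call at T2 held without any one library of either group. Between T2 and T1 the log2 fold change was 0.47 (SE 0.10, adjusted p = 0.0787 over all genes, unadjusted p = 0.000908), 0.41 with the replicate block (adjusted p = 0.0664), and 0.19 on the FPKM values. DESeq2 called Bbc3 higher in that comparison (2.13% of all genes called), and no edgeR fit that left out 1 library did.

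Bcl2l11 (chr2:127951774-127988283, plus strand) encodes BIM, the BH3-only gene best known for the death of neurons deprived of growth factor. It had 85.9, 83.7 and 26.3 CPM at T0, the last in replicate 3. At T1 it had 74.4, 89.1 and 104 CPM, and at T2 52.9, 51.6, 59.1 and 65.0 CPM. At T3 it had 30.3 and 27.6 CPM, from 364 and 256 reads. The ranges of T1, T2 and T3 did not overlap and T3 was the lowest, but T0 replicate 3 lay below all T3 libraries. Bcl2l11 fell 0.98 on the log2 scale from T2 to T3, to 0.51 of its T2 level (log2 fold change -0.98, SE 0.13, adjusted p = 0.0297).

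This call did not hold under every alternative. It was lost with no library left out in 1 fit of all 12 libraries (adjusted p = 0.281), with the replicate block (-1.01, adjusted p = 0.102) and with limma on FPKM (adjusted p from 0.151 to 0.257). It was also lost without any one of the 4 T2 libraries (adjusted p from 0.0553 to 0.102, at log2 fold changes of -1.02 to -0.91), and it held without either T3 library (adjusted p = 0.0086 and 0.0428). From T1 to T2 the log2 fold change was -0.64 (SE 0.12), with an adjusted p of 0.0546. DESeq2 (2.13% of all genes called) and limma on log2(FPKM + 1) (0.0455%) called Bcl2l11 lower there, and no edgeR fit that left out 1 library did. With the replicate number as a block the log2 fold change was -0.70 and passed (adjusted p = 0.0152), which made 1 of 9 members called against 1.99% of all genes. Against T0 with all libraries, the values of 0.44 (SE 0.42) for T1, -0.19 (SE 0.35) for T2 and -1.16 (SE 0.53, adjusted p = 0.227) for T3 did not pass. Against T0 replicates 1 and 2 alone, Bcl2l11 was not called at T1 (0.07, adjusted p = 0.702) and lower at T2 (-0.56, adjusted p = 0.00138) and T3 (-1.54, adjusted p = 0.00693).

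**Figure D3:**
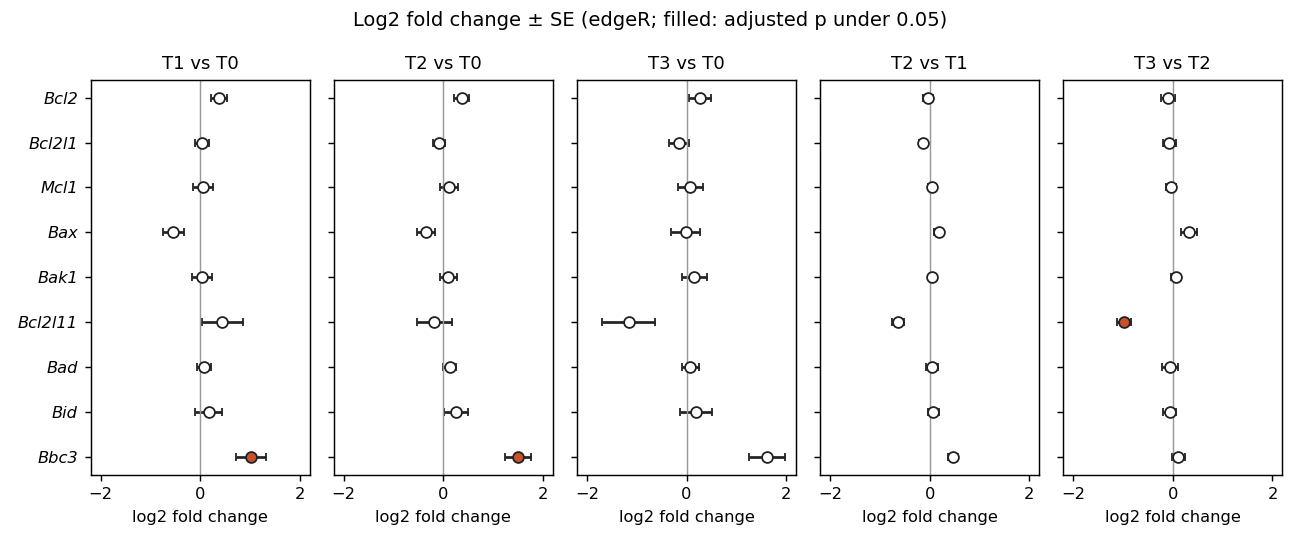
Log2 fold change of the 9 tested members in the 5 comparisons, with bars of 1 standard error from edgeR and filled points where the adjusted p was under 0.05. Bbc3 is filled at T1 (1.02) and T2 (1.50) against T0, and Bcl2l11 in T3 vs. T2 (-0.98).

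The other BH3-only genes varied less. Bad (chr19:7016351-7026388, plus strand), whose product is kept inactive by growth-factor kinases, had 27.03 to 36.7 CPM over all 12 libraries and log2 fold changes against T0 of 0.07 to 0.12, or 0.09 to 0.14 without T0 replicate 3. Bid (chr6:120841948-120866871, minus strand), which caspase-8 cleaves to link death receptors to mitochondria, had 25.7, 25.7 and 48.8 CPM at T0. It had 35.1 to 43.5 CPM in T1 libraries, 35.7 to 45.2 in T2 libraries, and 37.0 and 38.7 at T3. T0 replicate 3 was the highest of all 12 libraries and the other T0 libraries were the lowest. With all libraries the log2 fold change was 0.17 at T1, 0.25 in T2 vs. T0 and 0.20 in T3 vs. T0, none of which passed. Against the other T0 libraries alone, Bid rose by 0.55 at T1 (adjusted p = 0.00568), 0.63 at T2 (adjusted p = 0.00127) and 0.57 at T3 (adjusted p = 0.0393) by edgeR.

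Pmaip1 (chr18:66618258-66625204, plus strand), which encodes the MCL1-specific antagonist NOXA, had 0 counts and 0 FPKM in all 12 libraries. A count of 0 allows up to 3 counts, which corresponds to 0.18 to 0.337 CPM per library and covers counting error only. A level below that was not detectable in a single library at this depth. A floor over all 12 libraries together would be lower and was not computed.

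On the per-length scale the order of the members could be compared within a library. At T0 the mean FPKM was 138 ± 48.8 (SD, n = 3) for Bax, 40.7 ± 14.2 for Bak1, 35.6 ± 0.367 for Bad, 35.3 ± 13.2 for Mcl1 and 22.6 ± 1.90 for Bcl2l1. It was 14.8 ± 5.90 for Bid, 12.8 ± 5.60 for Bcl2l11, 7.27 ± 2.12 for Bbc3 and 3.33 ± 0.364 for Bcl2. Bax was the highest and Bcl2 the lowest, and the ranges of Bak1, Bad and Mcl1 overlapped, as did those of neighbours in the order Bcl2l1, Bid, Bcl2l11 and Bbc3. At T3 (n = 2) Bax, at 116 ± 22.0 FPKM, was still the highest, but Bbc3 at 18.3 ± 2.96 stood next to Bcl2l1 at 19.0 ± 0.603, and Bcl2l11 at 4.24 ± 1.10 next to Bcl2 at 3.46 ± 0.102. The FPKM table gives Bak1, Bad and Bid a wider locus than their own gene, which makes their FPKM values less certain.

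Within the BH3-only group the mixture of transcripts shifted. The FPKM of Bcl2l11 was 2.43, 1.62 and 1.17 times that of Bbc3 in T0 replicates 1, 2 and 3. The ratio was 1.18, 1.10 and 1.11 at T1, and 0.526, 0.41, 0.532 and 0.491 at T2. At T3 it was 0.245 and 0.213. All T0 and T1 libraries had more Bcl2l11 than Bbc3 and all T2 and T3 libraries less, and T0 replicate 3, in which both genes were low, lay within the T1 range. The mean ratio was 1.74 ± 0.641 (SD, n = 3) for T0 libraries and 1.13 ± 0.0408 (n = 3) for T1 libraries. For T2 it was 0.49 ± 0.0563 (n = 4) and for T3 0.229 ± 0.0231 (n = 2). Without T0 replicate 3 the T0 mean was 2.03. The same ratio from counts, which are not per length, was 5.69, 4.00, 1.87 and 0.88, so it fell in the same order. The number of counts per FPKM, which would be constant if both tables followed the same reads, had a coefficient of variation over libraries of 21% for Bcl2l11 and 19.9% for Bbc3, against 8.99% to 12.8% for the other detected members.

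**Figure D4:**
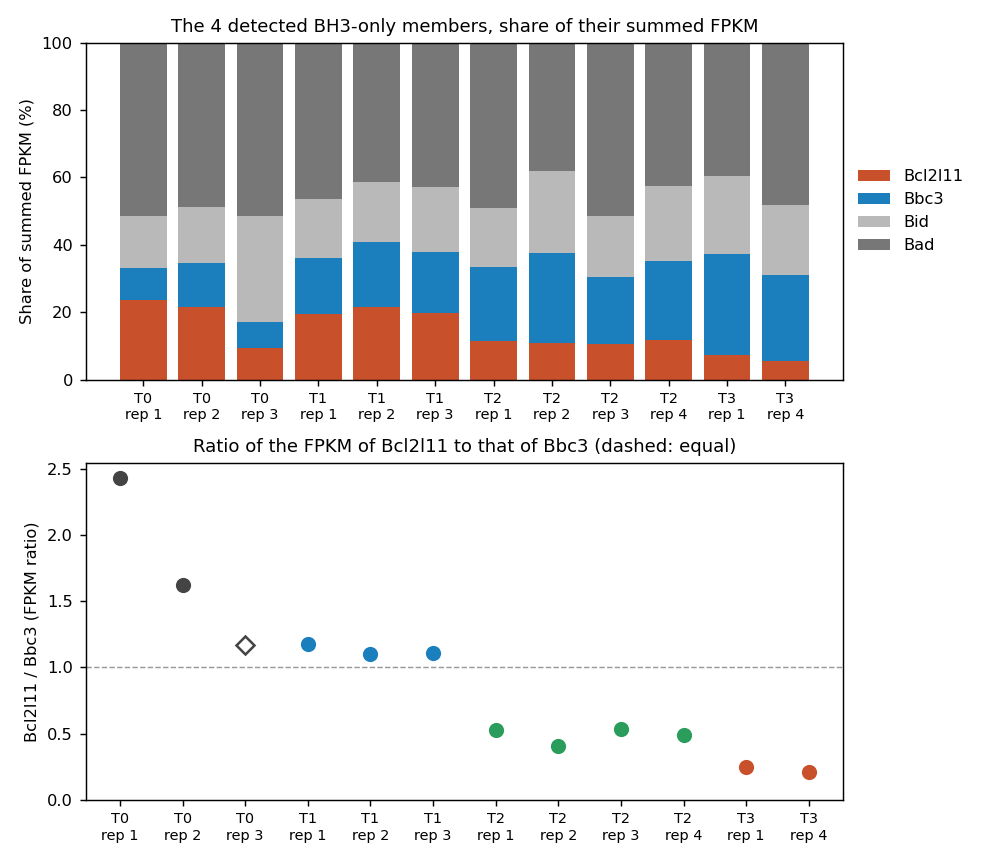
Upper panel, share of the summed FPKM of the 4 detected BH3-only members taken by each, per library. Lower panel, the FPKM of Bcl2l11 divided by that of Bbc3, which is above the dashed line (equal) in the 6 T0 and T1 libraries and below it in the 6 T2 and T3 libraries.

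As a share of the summed FPKM of the 4 detected BH3-only members, Bcl2l11 took 18.1% ± 7.70 (mean ± SD) of T0, 20.2% ± 1.01 of T1, 11.1% ± 0.50 of T2 and 6.39% ± 1.36 of T3 libraries. Bbc3 took 10.3% ± 2.70, 17.98% ± 1.42, 23.0% ± 2.93 and 27.7% ± 3.13 of the same libraries, while Bad remained the largest part, at means of 43.5% to 50.5%. For Bcl2l11, T0 replicates 1 and 2 (23.5% and 21.45%) lay above the T1 range of 19.5% to 21.39%, whereas T0 replicate 3 had 9.26%. Among the survival genes, the mean share of the summed FPKM by time point was 55.1% to 59.2% for Mcl1 and 5.60% to 6.81% for Bcl2. In single libraries the share of Mcl1 was 51.0%, 49.8% and 68.4% at T0, the last in replicate 3. It was 54.1% or more in every later library, so the T0 mean depended on replicate 3. The summed FPKM of the survival genes over that of the effectors was 0.356 ± 0.0531 in T0, 0.484 ± 0.054 in T1, 0.422 ± 0.0341 in T2 and 0.348 ± 0.0353 in T3 libraries. The T1 libraries (0.441 to 0.545) and the T2 libraries (0.392 to 0.466) lay above the T0 libraries (0.294 to 0.388), and the T0 and T3 ranges overlapped. These shares and ratios are descriptions and no test was run on them.

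Promoter windows of Bcl2l11 and Bbc3 both held one of 4 short motifs searched for. RefSeq promoter windows, from 250 bases before to 50 after an annotated start (GRCm38.p6), were found for 9 members in 15 windows and searched on both strands. GTAAACA, the core bound by FOXO factors, was in windows of 2 of the 9 members, Bcl2l11 and Bbc3. It was in windows of 4.05% of all 27025 genes and in 3.65% of all 32851 windows. CACGTG, the E-box bound by MYC and its relatives, was in Bax and Bbc3, and in 8.09% of genes and 7.15% of windows. TGACTCA, the AP-1 element (5.95% of genes, 5.2% of windows), and TGACGTCA, the cAMP response element (2.03% of genes, 1.79% of windows), were in none of the 9 members. No motif contains another. The 2 matches to GTAAACA are shown with 10 bases on either side, as they stand on the plus strand, and capitals mark the motif or, for Bbc3, its reverse complement.
Bcl2l11: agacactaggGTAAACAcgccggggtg
Bbc3: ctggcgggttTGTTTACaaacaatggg

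The first lies at chr2:127951537-127951563 of NCBIM37, with the motif 227 bases before the start site of its window. The second lies at chr7:16895433-16895459, inside the annotated span of Bbc3, with the motif 167 bases before the start site of its window. A match of letters is a description and says nothing about binding in these cells.

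Over the 12 libraries, each detected member had a gene whose log2 CPM followed it most closely among 12951 others. For Bbc3 this was Cadm3 (Pearson r = 0.987), for Bak1 Wars (0.978), for Bid Nkain1 (0.973), for Bcl2 Sync (0.971) and for Bcl2l11 Tyro3 (0.968). For Bax it was Eif2b4 (0.962), for Mcl1 Tbpl1 (0.956), for Bad Ndufb5 (0.945) and for Bcl2l1 Txlnb (0.893). These correlations are over libraries that share 4 time points and T0 replicate 3, and they are given as a description.

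The other genes of the pathway were counted in 6 lists. Of the 58 calls of their genes over the 5 comparisons, 20 held under every alternative run, all of them in T1 vs. T0 or T2 vs. T0. In T3 vs. T0 the number of calls moved with each library left out. Over all genes, 600 were called with all of them, 0 or 1 without either T3 library, 15 without T0 replicate 1 or 2, and 2317 without T0 replicate 3.

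In the list of 15 further BCL2 relatives, 9 had enough counts to be tested, and their median log2 fold change against T0 was -0.10, -0.17 and -0.10 for T1, T2 and T3. At T1, 1 rose and 2 fell, against 15.1% of all genes that rose and 16.8% that fell. At T2, 1 rose and 3 fell, against 21.4% and 21.8%, and at T3 1 rose and 1 fell, against 3.31% and 1.41%. The gene that rose in each was Hrk (chr5:118619773-118639487, plus strand), a BH3-only gene of neurons. It had 2.47, 2.77 and 3.32 CPM at T0, 9.53, 10.0 and 11.4 at T1, and 15.7, 24.0, 16.9 and 24.2 at T2. At T3 it had 19.4 and 12.95 CPM. All T1, T2 and T3 libraries lay above all T0 libraries, T0 replicate 3 included. Hrk rose 3.59-fold at T1 (log2 fold change 1.84, SE 0.21, adjusted p = 0.0014), 7.09-fold at T2 (2.83, SE 0.24, adjusted p = 0.000104) and 5.72-fold at T3 (2.52, SE 0.31, adjusted p = 0.0203). From T1 to T2 it rose a further 1.96-fold (0.97, SE 0.18, adjusted p = 0.0497), a call that was lost without any one library (adjusted p from 0.0505 to 0.245). With the replicate block it was 0.85 (adjusted p = 0.0437).

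Among those that fell, Bcl2l12 was lower at T1 (log2 fold change -1.44), T2 (-1.53) and T3 (-1.71), and Bok, an effector-like relative, was lower at T1 (-0.95) and T2 (-0.71). Bnip3l, a mitophagy receptor, was lower at T2 (-0.44). With T0 replicate 3 left out the counts of relatives were 2 up and 4 down at T1, 1 and 4 at T2, and 1 and 2 at T3. The shares of all genes called in either direction without it were 50.1%, 52.1% and 18.4%. Bok was then at -0.56 for T1 and -0.33 for T2. Hrk and Bcl2l12 held their calls at T1 and T2 under every alternative run, but at T3 Hrk lost its call under 7 of 13.

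**Figure D5:**
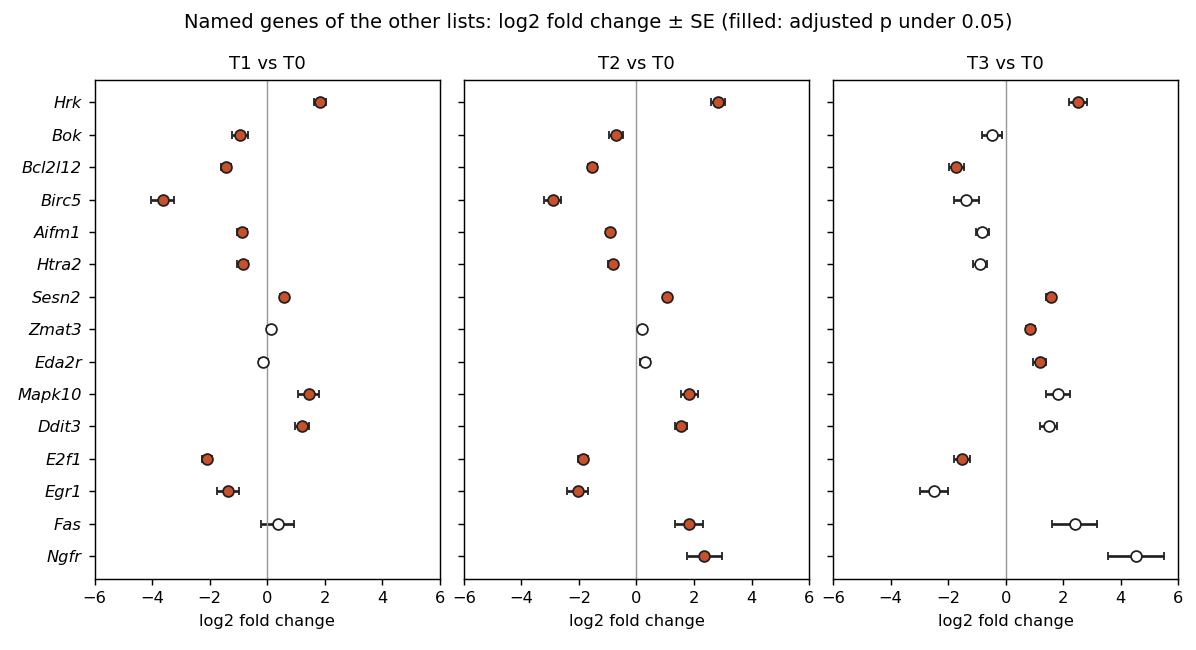
Log2 fold change against T0, with bars of 1 standard error, for 15 named genes of the other pathway lists, filled where the adjusted p was under 0.05. Hrk is filled to the right of 0 at T1, T2 and T3 (1.84, 2.83 and 2.52), whereas Birc5, Aifm1 and Htra2 are filled to the left at T1 and T2.

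Downstream of the mitochondrion, 15 of 17 genes of the apoptosome, caspases and their inhibitors were tested. At T1 0 rose and 5 fell, against 15.1% of all genes that rose and 16.8% that fell. At T2 0 rose and 6 fell, against 21.4% and 21.8%. The list's median log2 fold change was -0.23 at T1 and -0.19 at T2. At T3 edgeR called 0 of the 15 (4.72% of all genes), with 5 at an unadjusted p under 0.05 (26.3%). DESeq2 called 3 there, all lower (15.2% of all genes). Birc5 (survivin), which serves mitosis as well as caspase inhibition, had the largest change, at a log2 fold change of -3.64 (SE 0.38, adjusted p = 0.00105) at T1 and -2.92 (SE 0.31, adjusted p = 0.000219) at T2. The intermembrane-space genes Aifm1 (-0.88 and -0.92) and Htra2 (-0.85 and -0.83) were lower at T1 and T2. All 10 proliferation markers fell at the same points, from a sum of 2108 CPM or more at T0 to 442 CPM or less, and their part in these values was not tested. Leaving out T0 replicate 3, 1 rose and 7 fell at T1, 0 and 7 at T2, and 0 and 3 at T3. Of all genes, 50.1%, 52.1% and 18.4% were then called in either direction.

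Of 18 genes for p53 and its targets, 16 were tested. At T1 1 rose and 3 fell, against 15.1% and 16.8% of all genes. At T2 1 rose and 2 fell, against 21.4% and 21.8%. At T3 3 rose and 0 fell, against 3.31% and 1.41%. The list's median log2 fold change was -0.16, 0.11 and 0.38 in the same order. Sesn2, a stress-induced regulator of mTORC1, rose in all 3 comparisons (log2 fold change 0.57, 1.07 and 1.56), with 103 and 114 CPM at T3 against 32.9 to 40.5 at T0. Zmat3 and Eda2r rose at T3 against T0 (0.85 and 1.19) and also against T2 (0.65 and 0.89). In T3 vs. T2, 2 of the list rose against 0.5% of all genes and 0 fell against 0.691%. In T3 vs. T0 the call of Sesn2 was lost under 5 of 13 alternatives and those of Zmat3 and Eda2r under 8 each. In T3 vs. T2 the call of Zmat3 was lost under 10 of 15 alternatives and that of Eda2r under 12. DESeq2 called 7 higher and 0 lower of 18 genes of the list in T3 vs. T2, where it called 5.78% of all genes. In T3 vs. T0 it called 7 higher and 0 lower of 17, and 15.2% of all genes. Cdkn1a (p21) and Ccng1 were lower at T1 (-0.89 and -0.50), Plk2 was lower at T1 (-1.67) and T2 (-1.53), and Trp53 itself was lower at T2 (-0.54). Cdkn1a rose from T1 to T2 (0.91, or 0.93 with the replicate block), a call that was lost under 9 of 17 alternatives. In that comparison 1 of the list rose against 0.573% of all genes and 0 fell against 0.0565%. DESeq2 called 4 of the list higher there, and 2.13% of all genes in either direction. Leaving out T0 replicate 3, 2 rose and 6 fell at T1, 5 and 2 at T2, and 7 and 0 at T3. Of all genes, 50.1%, 52.1% and 18.4% were then called in either direction. Without that library Plk2 was at -0.81 and -0.66, Cdkn1a at -0.58 for T1 and Trp53 at -0.28 for T2.

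In the death receptor list 7 of 10 genes were tested at T1 and 8 at T2 and T3. The adaptor Tradd rose at T1 (0.64) and T2 (0.72), and Traf2 fell at T1 (-0.45). At T1 that was 1 up and 1 down, against 15.1% and 16.8% of all genes. At T2 the receptors Fas (1.81) and Ngfr (2.36) also rose and the adaptor Fadd fell (-0.58). With Traf2 the total was 3 up and 2 down, against 21.4% and 21.8% of all genes. At T3 edgeR called 0 of 8 (4.72% of all genes), with 2 at an unadjusted p under 0.05 (26.3%), and DESeq2 called 2 (15.2%). Leaving out T0 replicate 3, 1 rose and 2 fell at T1, 3 and 2 at T2, and 0 and 0 at T3. Of all genes, 50.1%, 52.1% and 18.4% were then called in either direction. Fadd lost its call at T2 without that library (-0.32, adjusted p = 0.0514). Both receptors stayed low, at 1.66 ± 0.541 FPKM for Fas and 0.162 ± 0.0769 FPKM for Ngfr at T2 (SD, n = 4).

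Among 10 known inducers of BH3-only genes, Mapk10 (JNK3, the neuronal JNK) rose at T1 (1.45) and T2 (1.84), and so did Ddit3 (CHOP, the endoplasmic reticulum stress factor), by 1.20 and 1.55. E2f1 fell in all 3 comparisons (-2.10, -1.85 and -1.52), and the immediate early gene Egr1 fell at T1 (-1.38) and T2 (-2.04). The median of the list was 0.21 for T1, 0.23 for T2 and 0.06 for T3. It had 2 up and 2 down at T1 (15.1% and 16.8% of all genes) and likewise at T2 (21.4% and 21.8%). At T3 it had 0 up and 1 down (3.31% and 1.41%). Leaving out T0 replicate 3, these counts were 4 and 3, 3 and 3, and 3 and 3. Of all genes, 50.1%, 52.1% and 18.4% were then called in either direction. Among 10 genes for the turnover or partners of members, Gsk3b (0.71 and 0.52), Btrc (0.57 and 0.61) and Tmbim6 (0.40 and 0.46) rose at T1 and T2. Vdac2, a BAK1 partner of the outer membrane, fell at both (-0.70 and -0.60). That was 3 up and 1 down at T1 (15.1% and 16.8% of all genes) and at T2 (21.4% and 21.8%). At T3 edgeR (4.72% of all genes) and DESeq2 (15.2%) called 0 of these 10, with 1 at an unadjusted p under 0.05 by edgeR (26.3%). Leaving out T0 replicate 3, 3 rose and 1 fell at T1 and 3 and 2 at T2, where Gsk3b lost its call (0.38, adjusted p = 0.0506) and Vdac2 was at -0.39. At T3 the counts were 0 and 0 of 9 tested. The shares of all genes without that library were again 50.1%, 52.1% and 18.4%.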

How the data were processed

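Total RNA of 12 cultures was made into TruSeq libraries and sequenced on a HiScanSQ. Per the labels, the authors aligned reads to mm9 with TopHat2 2.0.6 and Bowtie 0.12.7.0 and counted them with HTSeq 0.6.0, whose strand setting is not given in the sources used here. They deposited raw counts for 22609 genes. The 5 entries that name no gene did not enter library sizes or tests, and reads on no gene were 13.3% to 24.1% of uniquely aligned reads. A table that the authors deposited for the whole series gives FPKM for 34993 identifiers, and its columns were matched to libraries by their names. The column used for T3 replicate 4 carries a further number that the labels do not explain, so the T3 FPKM values, shares and ratios are less certain. The tool behind the FPKM values is not given in the sources used here.

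The 10 members and the gene lists were chosen with earlier results of these data known. Groups were taken from the sample titles. Counts were normalized by TMM, filtered with filterByExpr and tested by edgeR 4.0.16 (R 4.3.3) on the libraries of both groups of a comparison, with Benjamini-Hochberg adjustment over all genes and a threshold of 0.05. SE is the log2 fold change divided by the square root of F. Alternatives were DESeq2 1.42.0, its size factors in edgeR, other count filters (none, or 10 counts in every library), 1 fit of all libraries, a replicate block, libraries numbered 1 and 2 alone, leaving out each library, and limma 3.58.1 on log2(FPKM + 1) or log2(FPKM + 0.1) with a minimum of 1 FPKM or none. The test scripts were tested on simulated data. In T2 vs. T1, libraries with the same number deviated together from their group means (correlations of 0.199, 0.341 and 0.166). The highest correlation there, 0.37, was between differently numbered libraries, T2 replicate 4 and T1 replicate 3, so pairing by number is not established. Blocked values are given there beside the members that came near or past the threshold and the named genes. All members were named, and from each other list up to 4 called genes per comparison by size of change, with the 1 gene most like each member; 1 gene that the rule names is not reported here. Sequences were read from NCBIM37 with GENCODE vM1 and from RefSeq promoters (GRCm38.p6), whose windows were matched exactly to NCBIM37. Protein sequences were not used here. Intervals and floors cover counting error only.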

Additional observations from a re-analysis of the deposited data

How the results depend on the processing

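Of 702 alternative values of member fold changes, 597 kept their direction and their side of the threshold. The direction turned in 59, in all of which the adjusted p was 0.328 or more. The call of Bbc3 in T2 vs. T0 held under all alternatives run. The causes were not tested where no value is given.

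Shares of all genes called under the same alternative follow each count in parentheses. In T1 vs. T0, where 1 member (Bbc3) was called, 1 fit of all libraries called 2, Bax and Bbc3 (42.5%), and the libraries numbered 1 and 2 alone, a set without T0 replicate 3, called 6 (59.8%). Leaving out 1 library gave 0 to 5 members (14% to 50.1%). In T2 vs. T0, also with 1 member, the libraries numbered 1 and 2 alone called 5 (54.9%), and leaving out 1 library gave 1 to 5 (32.6% to 52.1%). In T3 vs. T0, with 0, DESeq2 called 1 (15.2%), no filter on counts 1 (6.71%) and the fit of all libraries 2 (29.8%), and leaving out 1 library gave 0 to 3 (0% to 18.4%). In T2 vs. T1, with 0, DESeq2 called 2 (2.13%), while no filter (0.921%), the libraries numbered 1 and 2 alone (0.894%) and limma with a pseudocount of 1 (0.0455%) or 0.1 (0.0379%) called 1 each, and leaving out 1 library gave 0 throughout (0.0716% to 0.55%). In T3 vs. T2, with 1, the fit of all libraries (0.324%) and the 3 limma fits on FPKM (0.0603% to 0.111%) called 0, and leaving out 1 library gave 0 to 2 (0.00798% to 10.5%).

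The replicate block in edgeR called 0 members in T1 vs. T0 (27.3% of all genes), where Bbc3 stood at 1.09 (adjusted p = 0.0618). It called 1 in T2 vs. T1 (1.99%), where it ended none of the calls of named genes. In T3 vs. T2 it called 0 (0.111%), where Bcl2l11 stood at -1.01 (adjusted p = 0.102). There it also ended the calls of Zmat3 (0.68, adjusted p = 0.153) and Eda2r (0.84, adjusted p = 0.178). Of the other named genes, Bok, Cdkn1a, Plk2, Traf2, Mapk10 and Tmbim6 lost their calls in T1 vs. T0 with the block. In T2 vs. T0 those of Bok, Bnip3l, Trp53, Plk2, Ngfr, Fadd, Traf2, Vdac2 and Tmbim6 were lost. In T1 vs. T0 and T2 vs. T0, same-numbered libraries deviated together by correlations of -0.0179 to 0.121 and -0.152 to 0.0155, and in T3 vs. T2 by -0.0152 and 0.258, so that these numbers were not taken as pairing. In T3 vs. T0 alone no blocked fit was run, because those groups share only number 1.

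Over all genes, the calls in T1 vs. T0 numbered 3949 and went from 1750 to 7462 under the alternatives, and those in T2 vs. T0 numbered 5455 and fell to 3157 with the block. In T3 vs. T0 the 600 calls became 2031 with DESeq2, 1165 without a filter, 257 with 10 counts in every library, 3865 in the fit of all libraries and 25 to 173 with limma. The 78 calls of T2 vs. T1 became 301 with DESeq2, 161 without a filter, 246 with the block, 3 in the fit of all libraries and 4 to 6 with limma. In T3 vs. T2 the 150 calls became 760, 719, 14, 42 and 12 to 15 in the same order.

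Among directions that turned, the libraries numbered 1 and 2 alone gave -0.077 for Bcl2l1 and -0.062 for Bcl2l11 in T1 vs. T0 and -0.015 for Mcl1 in T2 vs. T1, and a minimum of 10 counts gave 0.020 for Bax in T3 vs. T0. The limma fits with a pseudocount of 1, of 0.1 and without a filter gave, for T2 vs. T0, -0.048 each time for Bak1 and -0.080, -0.082 and -0.080 for Bad. For T3 vs. T0 they gave -0.116, -0.118 and -0.116 for Mcl1, -0.021, -0.020 and -0.021 for Bak1, and -0.29, -0.30 and -0.29 for Bad. For T2 vs. T1 they gave -0.063, -0.065 and -0.063 for Mcl1, -0.115, -0.117 and -0.115 for Bak1 and -0.099, -0.102 and -0.099 for Bad. Leaving out 1 library from T1 vs. T0 gave -0.064 to 0.090 for Bcl2l1, -0.062 to 0.33 for Mcl1 and -0.088 to 0.30 for Bak1. From T2 vs. T0 it gave -0.016 to 0.38 for Mcl1, -0.031 to 0.36 for Bak1 and -0.56 to 0.058 for Bcl2l11. From T3 vs. T0 it gave -0.37 to 0.038 for Bcl2l1, -0.040 to 0.35 for Mcl1, -0.34 to 0.24 for Bax and -0.078 to 0.22 for Bad. From T2 vs. T1 it gave -0.089 to 0.028 for Bcl2, -0.058 to 0.11 for Bad and -0.0032 to 0.19 for Bid. From T3 vs. T2 it gave -0.24 to 0.039 for Bcl2, -0.29 to 0.12 for Bcl2l1, -0.13 to 0.054 for Mcl1, -0.0030 to 0.11 for Bak1, -0.21 to 0.087 for Bad and -0.12 to 0.0080 for Bid.

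With 2 libraries at T3, the comparisons with T3 rest on the fewest libraries, and lone libraries left in an arm were assumed to vary like the other group. For Pmaip1 the depth of a single library allows no statement below its floor.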
